A study of Drosophila pseudoobscura with 4 samples.

Results

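The microRNAs dps-mir-14, dps-mir-33 and dps-mir-278 of *Drosophila pseudoobscura* were chosen for the roles of their orthologs in fat and insulin metabolism, and were found by name in the count tables. All 3 were counted, out of 231 microRNAs in all, and all 3 were among the 84 abundant enough to be tested. The dataset had 2 male and 2 female small RNA samples from whole adults of a wild-caught stock, reared at 18 °C under cycles of 12 h of light and 12 h of dark. The flies were 7 days old, the study describes the females as unfertilized, and the labels name no treatment or transgene. Whole-fly RNA mixes all tissues, so fewer cells of a type and less of a microRNA per cell cannot be told apart. Each of 2 sequencing runs held 1 male and 1 female sample.

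A microRNA is a short RNA that guides the silencing of messenger RNAs with matching sites. In *D. melanogaster*, mir-14 restrains fat storage, acts in the neurons that produce insulin-like peptides, and was first known for limiting cell death. The gene mir-33 sits inside the gene of SREBP, the transcription factor that turns on lipid synthesis, in insects as in mammals, and in mammals it represses sterol export. Flies without mir-278 are lean and carry raised sugar despite raised insulin, through loss of repression of the gene expanded.

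The genomic positions, on assembly UCI_Dpse_MV25 and as annotated by the study, were as follows. The precursor dps-mir-14 was on chromosome 3 (Muller element C, an autosome) from 19623233 to 19623295, between annotated genes, 4694 bases from Or45b, an odorant receptor gene. On the XR arm of the X, the neo-X that derives from Muller element D, dps-mir-33 ran from 48493164 to 48493254. It lay within the RefSeq span of SREBP, from 48489371 to 48494208. The precursor dps-mir-278 was on chromosome 3 as well, from 23339855 to 23339952, inside the span of fus, an RNA-binding protein gene. The gene spans give no exons, so exonic and intronic positions were not distinguished.

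The first run gave 5697 male and 7111 female reads, and the second gave 67076 and 42754. The share of dps-mir-8, the most abundant microRNA, was 25.4% to 31.2%. As a check on the sex labels, the ovarian microRNA dps-mir-318 had male read counts of 2 and 5 and female read counts of 287 and 3102, and its neighbor dps-mir-994 had 0 and 1 against 48 and 369. The counts of dps-mir-133, a muscle microRNA, were 6 and 181 for males and 3 and 50 for females. By the tests and thresholds given below, edgeR called it higher in males (log2 fold change 1.46, adjusted p = 0.0699). DESeq2 (adjusted p = 0.265) and limma-voom (adjusted p = 0.157) did not call it. The smallest level taken as measurable, 3 reads, was 597 CPM for the first male library and 43.4 for the second. For the female libraries it was 493 and 54.6 CPM. CPM are counts per 1e+06 reads after scaling by TMM (trimmed mean of M-values). These limits and all counting intervals cover the counting error of reads only, and hold no spread between replicate libraries. The reads carry no molecular identifiers, so copies of the same molecule could not be told apart. Each read is a whole small RNA, so levels were compared as read shares without dividing by length.

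The microRNA dps-mir-14 was abundant in every library. It had 428 reads in the male library of the first run (7.51% of reads, 95% Wilson interval 6.86 to 8.23) and 4015 in that of the second (5.99%, 5.81 to 6.17). The female libraries had 397 reads (5.58%, 5.07 to 6.14) and 1775 (4.15%, 3.97 to 4.34). In both runs the male library was above the female one, although the second male and the first female shares had overlapping intervals. It was between the fourth and the sixth most abundant microRNA of a library. Scaled by TMM, the male level was 71624 ± 19195 CPM and the female level 48759 ± 23236 CPM (SD, n = 2 per sex). These standard deviations include the difference between the runs.

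The microRNA dps-mir-33 was several-fold less abundant. Its reads were 43 (0.755%, 95% Wilson interval 0.561 to 1.02) and 1240 (1.85%, 1.75 to 1.95) in the male libraries. In the female libraries there were 61 (0.858%, 0.668 to 1.10) and 771 (1.80%, 1.68 to 1.93). On read shares, the libraries separated by run and not by sex, since in each run the male and female intervals overlapped. After TMM scaling, the male level of the second run was 1.28-fold the female level (95% counting interval 1.17 to 1.40). The male level was 13244 ± 6625 CPM and the female level 12030 ± 2847 CPM (SD, n = 2 per sex). Its rank within a library ran from 11 to 16.

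The least abundant of the 3, dps-mir-278, was near the limit of detection in the first run, with 1 male read and 3 female reads. In the second run it had 201 reads in the male library (0.300%, 95% Wilson interval 0.261 to 0.344) and 95 in the female library (0.222%, 0.182 to 0.272). The first-run levels were at or under the floor of 3 reads and cannot be ordered. The male level was 1553 ± 1914 CPM and the female level 1111 ± 875 CPM (SD, n = 2 per sex). These standard deviations include the difference between the runs, so they do not measure the spread of a sex within a run.

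**Figure D1:**
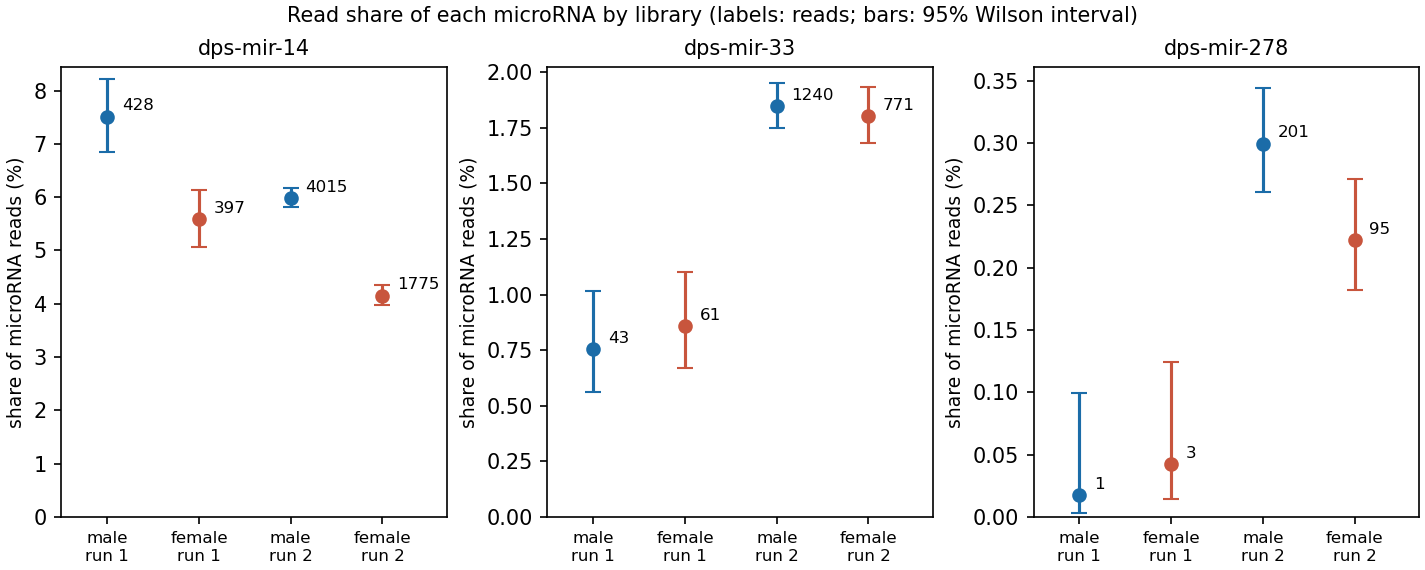
Share of microRNA reads (percent) of dps-mir-14, dps-mir-33 and dps-mir-278 in the male (blue) and female (red) library of each run, with the number of reads beside each point and the 95% Wilson interval as a bar. For dps-mir-14 the male point is above the female point in both runs (7.51% and 5.58%, then 5.99% and 4.15%), while dps-mir-33 and dps-mir-278 have higher shares in both libraries of the second run.

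Are these microRNAs sex-biased? Within the first run, the male share of dps-mir-14 was 1.35-fold the female share (95% counting interval 1.17 to 1.55), or 1.31-fold (1.14 to 1.50) after TMM scaling. Within the second run it was 1.44-fold (1.36 to 1.53), or 1.80-fold (1.70 to 1.90) after TMM scaling. With the size factors of DESeq2 in place of TMM, these became 1.10-fold (0.961 to 1.27) and 1.32-fold, with both bounds above 1. The male level was thus higher in both runs on each of the 3 scales, but in the first run under the size factors the excess was within counting error. These intervals compare the libraries and not the sexes. In edgeR's quasi-likelihood test with run and sex in the model, the log2 fold change of males over females was 0.62 (standard error 0.42, approximate 95% interval -0.49 to 1.73, adjusted p = 0.446). The test therefore did not resolve a difference between the sexes, and the interval does not show that the sexes are alike. The size of the log2 fold change depended on the setting. It was 0.28 in DESeq2, 0.27 in edgeR with the size factors and 0.21 under edgeR's own filter on low counts (filterByExpr, 55 microRNAs). With total counts only it was 0.48, with total counts less dps-mir-8 0.54, and in limma-voom 0.69. Leaving out 1 library leaves the male and female pair of 1 run, with TMM factors re-estimated from the libraries kept. On log2 CPM this gave 0.39 for the first run and 0.30 for the second. With the factors of all 4 libraries these pairs differed by 0.39 and 0.84, so these values are not estimates over both runs.

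For dps-mir-33, the male share was 0.880-fold the female share in the first run (95% counting interval 0.581 to 1.32) and 1.03-fold in the second (0.936 to 1.12). After TMM scaling these became 0.855-fold (0.565 to 1.28) and 1.28-fold (1.17 to 1.40). The level in the second run was the better measured, and there the read shares of the sexes differed by less than counting error. The log2 fold change was 0.09 (standard error 0.48, approximate 95% interval -1.17 to 1.35, edgeR adjusted p = 0.957). Its sign changed with the scaling, to -0.065 without TMM (total counts only) and to -0.26 under the size factors of DESeq2. With 1 library left out, only the pair of 1 run remains, and the TMM factors are re-estimated. On log2 CPM this gave -0.22 for the first run and -0.19 for the second. With the factors of all 4 libraries these pairs gave -0.23 and 0.35, so the second-run sign changed with the factors and not with the libraries compared.

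The male share of dps-mir-278 in the second run was 1.35-fold the female share (95% counting interval 1.05 to 1.74), or 1.68-fold (1.31 to 2.17) after TMM scaling and 1.24-fold (0.965 to 1.60) with the size factors of DESeq2. In the first run, 1 male and 3 female reads gave 0.416-fold, with an interval of 0.00793 to 5.18. The log2 fold change was 0.48 (standard error 0.48, approximate 95% interval -0.78 to 1.73, edgeR adjusted p = 0.624). It rests on the second run. Without the male or the female library of that run, only the first-run pair remains, and its log2 CPM difference was -1.01 or -1.05.

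In edgeR's test 0 of the 3 met the thresholds for a call (FDR below 10%, difference of 25% or over), beside 13.1% of the 84 microRNAs tested (11 of 84). None of the 3 had an unadjusted p-value under 0.05, beside 21 of the 84. Of the 3, 0 were called by DESeq2, beside 20.2% of the 84 (17 of 84), and 0 by limma-voom, beside 7.14% (6 of 84). With so few members, a count of 0 cannot be set apart from these shares. The median log2 fold change of all 84 microRNAs was 0.46 with TMM scaling and 0.06 in DESeq2, so values were also taken relative to the median of the same setting. Over the 7 settings that tested these 84, dps-mir-14 was between 0.066 and 0.35 above that median (0.15 in edgeR's test), whereas dps-mir-33 was between -0.38 and -0.14 (-0.38 in edgeR's test). For dps-mir-278 the value was 0.014 and it ran from -0.15 to 0.037. Of the 19 microRNAs whose base mean reached 100, which include dps-mir-14 and dps-mir-33, edgeR called 2, and the median size of their log2 fold change was 0.28.

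**Figure D2:**
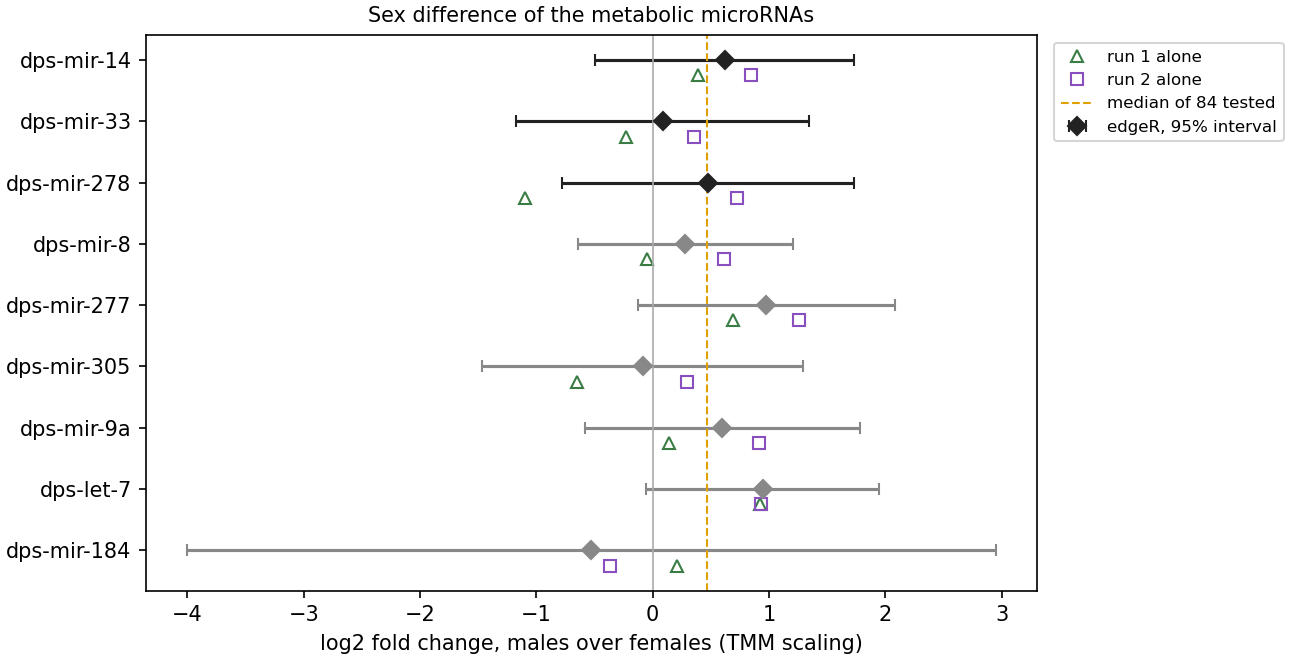
Log2 fold change of males over females after TMM scaling for dps-mir-14, dps-mir-33, dps-mir-278 (black) and 6 other metabolic microRNAs (gray), with edgeR's value as a diamond, its approximate 95% interval as a bar, and the value within each run as a triangle or a square. All 9 intervals include 0, and the dashed line is the median of the 84 tested microRNAs, 0.46.

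The ratio of dps-mir-14 to dps-mir-33 reads needs no scaling, because both are counted in the same library. There were 9.95 reads of dps-mir-14 for each read of dps-mir-33 in the first male library (exact 95% counting interval 7.26 to 14.0) and 6.51 in the first female library (4.96 to 8.67). In the second run the ratios were 3.24 in the male library (3.04 to 3.45) and 2.30 in the female library (2.11 to 2.51). Within a run the male ratio was above the female ratio, 1.53-fold in the first (95% interval 0.992 to 2.37) and 1.41-fold in the second (1.26 to 1.57). Between the runs the ratio fell 3.07-fold in males and 2.83-fold in females, so that both libraries of the first run were above both of the second.

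On the log2 scale the male ratio was 2.51 ± 1.15 and the female ratio 1.95 ± 1.06 (SD, n = 2 per sex), a difference of 0.55. The exact two-sided permutation test over the 4 libraries, which ignores the run, gave p = 0.667, where the smallest possible is 0.333. With libraries exchanged only within a run, the exact two-sided p was 0.5, the smallest that 2 runs allow, so this design could not show a sex difference of the ratio by either test. For the second against the first run the difference was -1.56 and the exact p was 0.333, also the smallest possible. The sex difference without the run held fixed depends on single libraries. It was -0.26 without the first male library and -0.20 without the second female library, because each run is then unequally represented in the sexes.

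**Figure D3:**
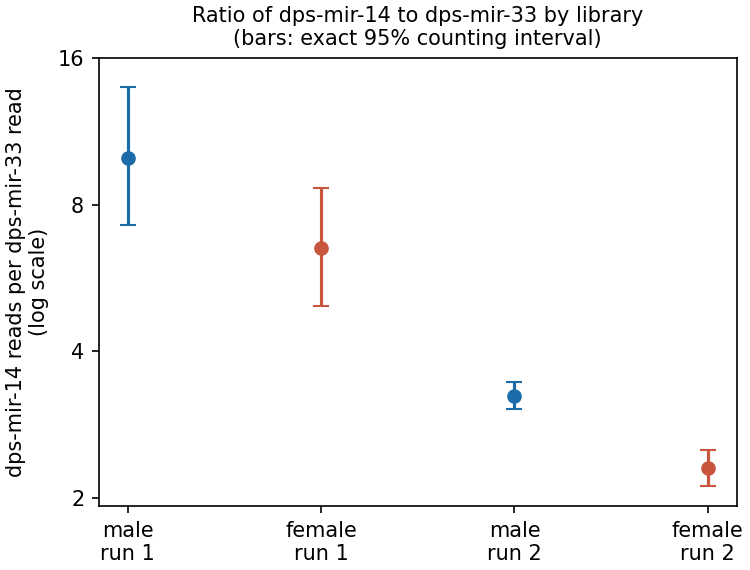
Reads of dps-mir-14 for each read of dps-mir-33 in the male (blue) and female (red) library of each run on a log scale, with exact 95% counting intervals as bars. The ratio was 9.95 and 6.51 in the first run and 3.24 and 2.30 in the second, higher in the male library each time.

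The runs can be compared in the same fit. From the first run to the second, the read share of dps-mir-14 went to 0.797-fold in males (95% counting interval 0.721 to 0.882) and 0.744-fold in females (0.667 to 0.831). The share of dps-mir-33 went to 2.45-fold in males (1.81 to 3.40) and 2.10-fold in females (1.62 to 2.78). After TMM scaling these became 2.09-fold (1.55 to 2.91) and 1.40-fold (1.08 to 1.85). With the size factors of DESeq2 they were 1.68-fold (1.24 to 2.33) and 1.29-fold (0.991 to 1.70). With its 1 and 3 reads in the first run, dps-mir-278 went to 17.1-fold (3.03 to 678) and 5.27-fold (1.75 to 26.0). Each of the 3 thus moved the same way in both sexes, dps-mir-14 downward and the others upward. Under the size factors, the rise of dps-mir-33 in females was within counting error.

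In edgeR's test the log2 fold change of the second over the first run was -0.78 for dps-mir-14 (standard error 0.42, adjusted p = 0.391), 0.77 for dps-mir-33 (standard error 0.48, adjusted p = 0.414) and 2.62 for dps-mir-278 (standard error 0.59, adjusted p = 0.115). None of the 3 was called, beside 1.19% of the 84 (1 of 84), and dps-mir-278 alone had an unadjusted p-value under 0.05, as did 20 of the 84. This count depended strongly on the setting. DESeq2 called 26.2% of the 84 for the run (22 of 84), with dps-mir-14 (adjusted p = 1.06e-08) and dps-mir-278 (adjusted p = 0.0315) among them, and limma-voom called 13.1% (11 of 84), with 0 of the 3. The value of dps-mir-14 ran from -1.004 with the size factors of DESeq2 to -0.38 with total counts only, and that of dps-mir-278 from 1.64 without the second male library to 3.68 without the first female library. Those for dps-mir-278 are the run difference of the female pair alone and of the male pair alone. What differed between the runs besides depth is not given in the sources used here, and its part in these values was not tested.

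**Figure D4:**
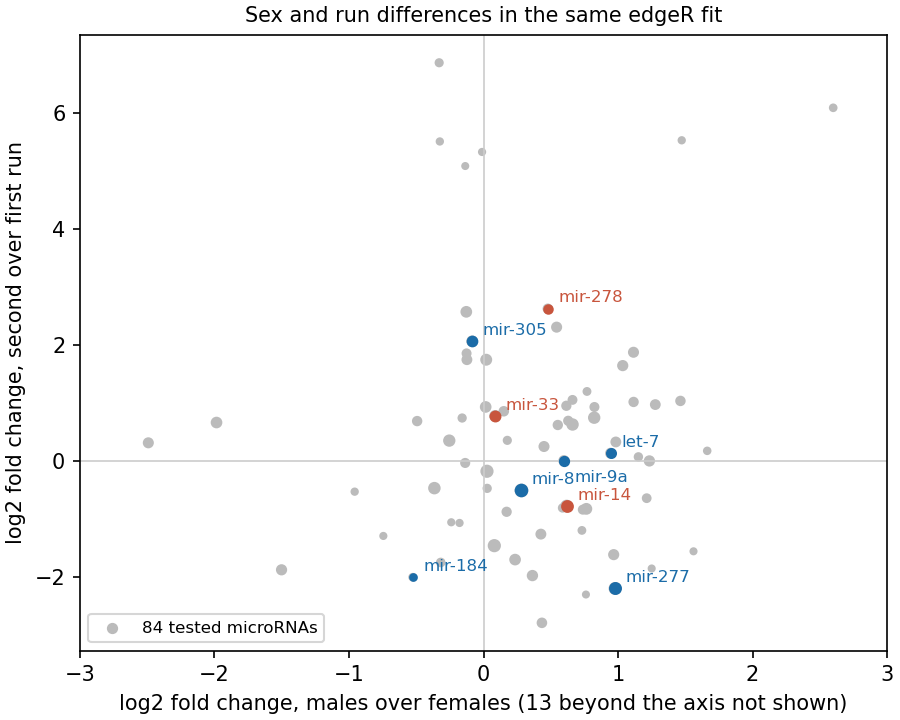
Log2 fold change of males over females (horizontal) and of the second over the first run (vertical) in one edgeR fit, for dps-mir-14, dps-mir-33 and dps-mir-278 (red), 6 other metabolic microRNAs (blue) and the other tested microRNAs (gray, with larger points for a higher base mean). The run value of dps-mir-278 (2.62) is larger than its sex value (0.48), dps-mir-14 is at -0.78 and 0.62, and 13 microRNAs beyond the horizontal axis are not drawn.

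The other microRNAs listed for a metabolic role in *D. melanogaster* were 6, and all were tested. These were dps-mir-8, which promotes insulin signaling in the fat body, dps-mir-277, a repressor of branched-chain amino acid breakdown, and dps-mir-305, which acts on insulin signaling in the gut. The rest were dps-mir-9a, a repressor of a neuropeptide receptor upstream of insulin, dps-mir-184 and dps-let-7, both linked to metabolism and lifespan. In edgeR's test 0 of the 6 were called for sex, beside 13.1% of the 84, and none had an unadjusted p-value under 0.05, beside 21 of the 84. Their median log2 fold change was 0.44, beside 0.46 over all 84. The highest value was that of dps-mir-277, with male counts of 785 and 2853 and female counts of 589 and 945. Its share was 1.66-fold higher in the male library of the first run (95% counting interval 1.49 to 1.85) and 1.92-fold in that of the second (1.79 to 2.07). Its log2 fold change was 0.98 (standard error 0.42, edgeR adjusted p = 0.221), and it passed in DESeq2 (adjusted p = 0.00194) but not in limma-voom (adjusted p = 0.157). The lowest was dps-mir-184, with at most 3 reads in a library, too few to give a direction. For the run, edgeR called 0 of the 6, beside 1.19% of the 84, and 2 had an unadjusted p-value under 0.05, beside 20 of the 84, dps-mir-277 (log2 fold change -2.20, adjusted p = 0.115) and dps-mir-305 (2.06, adjusted p = 0.117). DESeq2 called 3 of the 6 for the run, beside 26.2% of the 84, and limma-voom called 2, beside 13.1%.

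By mean CPM over the 4 libraries, dps-mir-14 was in position 5 of 231, dps-mir-33 in position 12 and dps-mir-278 in position 39. The order with their neighbors was not stable among libraries. Just above dps-mir-14, dps-mir-277 was higher in 2 of the 4 libraries, those of the first run, and dps-mir-263a, just below, was lower in 3 of the 4. Around dps-mir-33, dps-mir-11 was higher in 2 libraries and dps-mir-12 lower in 2. The neighbors of dps-mir-278 were dps_2613, higher in 2 libraries, and dps-mir-133, lower in 2.

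The microRNAs most like each of the 3 were sought among the 26 with at least 10 reads in every library, by the root mean square difference of log2 CPM over the 4 libraries after centering each microRNA on its own mean. The nearest to dps-mir-14 was dps-mir-12, at 0.07, with male counts of 76 and 708 and female counts of 66 and 277, followed by dps-mir-8 at 0.22 and dps-mir-275 at 0.37. For dps-mir-33 they were dps-mir-317 at 0.27, dps-mir-281-1 at 0.31 and dps-mir-10 at 0.31, the second of which has a close copy that could share its reads. For dps-mir-278 they were dps-mir-31a at 0.20, dps-mir-305 at 0.35 and dps-mir-11 at 0.46, whose run log2 fold changes were 2.57, 2.06 and 1.74. Their sex log2 fold changes were -0.13, -0.085 and 0.02, so for dps-mir-278 the likeness mostly describes the difference between the runs. The 3 nearest to dps-mir-14 had sex log2 fold changes of 0.76, 0.28 and 0.43 and run values of -0.83, -0.51 and -1.27. Their signs were those of dps-mir-14 itself for both sex and run. For the 3 nearest to dps-mir-33 the sex values were -0.25, 0.45 and 0.66, of both signs, and the run values were 0.35, 0.25 and 0.63. That likeness thus shows no shared sex difference. With 1 and 3 reads in the first run, dps-mir-278 itself was not among the 26.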

How the data were processed

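Sequencing of small RNAs from 2 male and 2 female samples used an Illumina MiSeq. The authors trimmed adapters with Cutadapt, mapped with HISAT2 and counted with featureCounts on annotated precursors, leaving out precursors identical to several regions, and deposited raw read counts without normalization. An unnamed empty line of each file was dropped. Samples were grouped by sex from their titles, and their number was read as the sequencing run, following the study's description of paired runs. Run changes in males and in females had a Pearson r of 0.567 across the 84 tested microRNAs, which are not independent replicates. Some, such as dps-mir-193, had 0 reads in both first-run libraries and reads in both second-run libraries (26 and 26). Such values can rise in both sexes with depth, so r is not a test of the pairing. The study describes the samples of a sex as biological replicates.

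The main test was edgeR's quasi-likelihood F test (edgeR 4.0.16, R 4.3.3) on counts scaled by TMM, with run and sex in the model as in the study. It covered microRNAs whose base mean in DESeq2 was 1 or more. Calls needed a fold change of 1.25 or more and a Benjamini-Hochberg FDR below 0.1. Standard errors were obtained from the fold change and F, and are approximate. Log2 CPM used a prior count of 2. Alternatives used DESeq2 1.42.0 (local fit), limma 3.58.1 (voom), other scalings and filters, no replicate block, and each library left out. The microRNAs and lists were chosen with earlier results of these data known. Named besides the 3 were a metabolic list, sex and muscle markers, neighbors by mean CPM and the 3 microRNAs of most similar profile. The muscle microRNA dps-mir-1 was listed too, but it was not among the 231 microRNAs counted, so it was not analysed. Positions are from the study's annotation and gene spans from RefSeq.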

Additional observations from a re-analysis of the deposited data

Results flagged for a closer look

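After TMM scaling, the log2 ratio of male to female levels of dps-mir-33 was -0.23 (first run) and 0.35 (second run), of opposite sign, with 43 and 61 reads in the first run. The signs were also opposite with total counts only (-0.18 and 0.036), but with DESeq2's size factors both were negative (-0.47 and -0.089). For dps-mir-278 the first run gave -1.10, from 1 male and 3 female reads, and the second 0.73, and the signs were opposite with total counts and with size factors too. The TMM and total-count values are log2 CPM with a prior count of 2. With 1 library per sex and run, the difference between the runs was not tested.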

How the results depend on the processing

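For dps-mir-14 the sex difference was 0.28 in DESeq2, 0.27 with its size factors and 0.21 under filterByExpr. It was 0.48 with total counts only, 0.54 with total counts less dps-mir-8, 0.62 with every microRNA with a read and 0.69 in limma-voom. Every sex difference of the 3 microRNAs stayed outside the call thresholds in all the alternatives with a test. With no replicate block, the log2 fold changes were 0.56, 0.14 and 0.53 for dps-mir-14, dps-mir-33 and dps-mir-278, and 9 microRNAs were called against 11. For dps-mir-33 the sign turned under DESeq2 (-0.25), DESeq2's size factors (-0.26), total counts only (-0.065), total counts less dps-mir-8 (-0.0034) and filterByExpr (-0.33), and for dps-mir-278 under DESeq2 (-0.024) and filterByExpr (-0.060). Of the 84 tested, DESeq2 called 17 for sex, limma-voom 6 and edgeR with the size factors 13. With total counts only the number was 16, and with total counts less dps-mir-8 it was 16 as well. It was 9 of 131 with every microRNA with a read and 10 of 55 under filterByExpr. With 3 members, counts of 0 cannot be set apart from these shares. Leaving out a library leaves the pair of 1 run, with TMM factors of the other 3 libraries. On log2 CPM, the first-run and second-run pairs then gave 0.39 and 0.30 for dps-mir-14, and -0.22 and -0.19 for dps-mir-33. For dps-mir-278 the first-run pair gave -1.05 to -1.01 and the second-run pair 0.20.

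For the run, dps-mir-14 passed with DESeq2 (-1.003), its size factors (-1.004) and filterByExpr (-0.64), dps-mir-33 with total counts only (1.1802), and dps-mir-278 with DESeq2 (2.43), its size factors (2.41), total counts only (3.03), total counts less dps-mir-8 (2.99) and filterByExpr (2.78). The numbers called for the run, 1 in edgeR's test with TMM scaling and the run in the model, were 22 (DESeq2), 11 (limma-voom), 21 (size factors), 34 (total counts), 26 (total less dps-mir-8), 20 of 55 (filterByExpr) and 1 of 131 (every microRNA with a read). The cause was not tested. Without a library, the run values were those of the sex left with both runs. They were -1.01 to -0.39 for dps-mir-14, 0.48 to 1.22 for dps-mir-33 and 1.64 to 3.68 for dps-mir-278. The sex difference of the log2 ratio of dps-mir-14 to dps-mir-33 was 0.55 with the replicate block, and without a library ran from -0.26 to 1.36. With at least 30 reads in every library, 0 of the 3 microRNAs most like dps-mir-278 were kept, and 2 or more in each other case. Leaving out a library leaves no residual degrees of freedom, so it gives no test.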
